A study of Homo sapiens with 8 samples.

Results

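The genes described here are the matrix metalloproteases (MMP genes), the ADAM genes, the ADAMTS and ADAMTS-like (ADAMTSL) genes and the tissue inhibitors of metalloproteases (TIMP1 to TIMP4). They were chosen by symbol, as a class prefix plus a number with at most 1 further letter, which gave 76 genes of the 23248 symbols kept, and 34 of the 11442 genes tested. Earlier results of these data were known when this choice was made. The 76 were 24 MMP genes, 24 ADAM genes, 19 ADAMTS genes, 5 ADAMTSL genes and 4 TIMP genes. A further 6 symbols that begin alike but name antisense transcripts or pseudogenes were not counted as members.

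Polyadenylated RNA of cultured human fibroblasts was sequenced from cells that received a short interfering RNA (siRNA) to SUPT4H1 or a control siRNA, both transfected with Lipofectamine RNAiMax in DMEM with 10% FBS, penicillin and streptomycin. SUPT4H1 encodes SPT4, a subunit of the elongation factor DSIF that travels with RNA polymerase II. There were 4 SUPT4H1 siRNA samples and 4 control siRNA samples, with 2 replicate treatments of each siRNA in each of 2 fibroblast lines, called line 1 and line 2 and both labelled as population controls. The labels do not say that replicates were grown apart, so p-values speak only of the scatter among these samples, possibly technical, and 2 lines cannot stand for fibroblasts in general.

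Metzincin proteases of these families share a catalytic zinc ion held by histidines. MMPs are secreted or membrane-bound and cut collagens and other matrix proteins, ADAMs are membrane proteins of which several release the outer parts of other membrane proteins, and ADAMTS proteases are secreted and act on proteoglycans, procollagens and microfibrils. ADAMTSL proteins resemble ADAMTS proteins without the protease domain. TIMPs bind the active site and hold the proteases in check, and fibroblasts are a main source of both sides.

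Levels are the authors' deposited FPKM, fragments scaled by transcript length and library size. Since FPKM is per length, levels of different genes can be compared. Changes are differences of log2(FPKM + 1), SUPT4H1 siRNA minus control siRNA, from a limma fit with the line as block, and adjusted p-values are Benjamini-Hochberg values over all 11442 genes tested, with a threshold of 0.05. Changes of weakly expressed genes come out too small on this scale. A gene was tested where its mean over the 8 samples was 1 FPKM or more.

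The tables held 288293 to 305680 FPKM per sample in all, and the number of fragments is not given. The deposited interval of an expressed member had a half-width of 0.671% of its value at the narrowest and 89.4% at the widest, the wider in MMP12. SUPT4H1 itself stood at 1.37, 1.43, 1.69 and 1.74 FPKM in SUPT4H1 siRNA samples, against 25.6, 25.6, 26.2 and 28.3 FPKM in control samples. All 10 fibroblast markers examined reached 1 FPKM, of which 4 fell and 1 rose, against 15.2% of all genes tested that fell and 26.8% that rose. The markers of keratinocytes, epithelia, endothelium and melanocytes reached at most 0.560 FPKM, except KRT10 at 7.60 to 8.85 FPKM. The 4 leukocyte markers summed to between 59.4 and 78.1 FPKM in SUPT4H1 siRNA samples and between 45.1 and 51.9 FPKM in control samples. Nearly all of this was CD68, a lysosomal protein also made by fibroblasts, while PTPRC and LYZ stayed at or below 0.206 FPKM. Whether this shift has a part in any result below was not tested. As the RNA is from bulk cultures, fewer cells of a kind and less RNA per cell cannot be told apart.

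Of the 76 members, 34 were expressed, with a mean of 1 FPKM or more, and all 34 were tested. They were 11 MMP genes, 7 ADAM genes, 10 ADAMTS genes, 3 ADAMTSL genes and 3 TIMP genes. Of the 42 below that level, 15 were listed at 0 in all 8 samples, among them ADAM2, ADAM7, ADAM18, MMP20 and MMP26. The lowest expressed members were ADAMTS6 with a mean of 1.18, MMP12 with 1.19 and MMP15 with 1.21 FPKM. Just below the limit were ADAMTS15 with 0.849 and ADAM23 with 0.776 FPKM.

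After SUPT4H1 siRNA, 12 of the 34 expressed members rose and 9 fell, against 26.8% of all genes tested that rose and 15.2% that fell, or 42.1% in either direction. That is 35.3% and 26.5% of the members, so many of these genes changed, as many genes did in the whole series. The classes went different ways in their counts. Of 11 MMP genes 6 rose and 0 fell, of 7 ADAM genes 3 rose and 2 fell, of 13 ADAMTS and ADAMTSL genes 2 rose and 6 fell, and of 3 TIMP genes 1 rose and 1 fell. The median log2 change was 0.17 over the MMP genes, 0.03 over the ADAM genes, -0.14 over the ADAMTS and ADAMTSL genes and -0.03 over the TIMP genes, beside 0.03 over all genes tested. The difference between the classes was not tested, and the classes hold few genes.

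**Figure D1:**
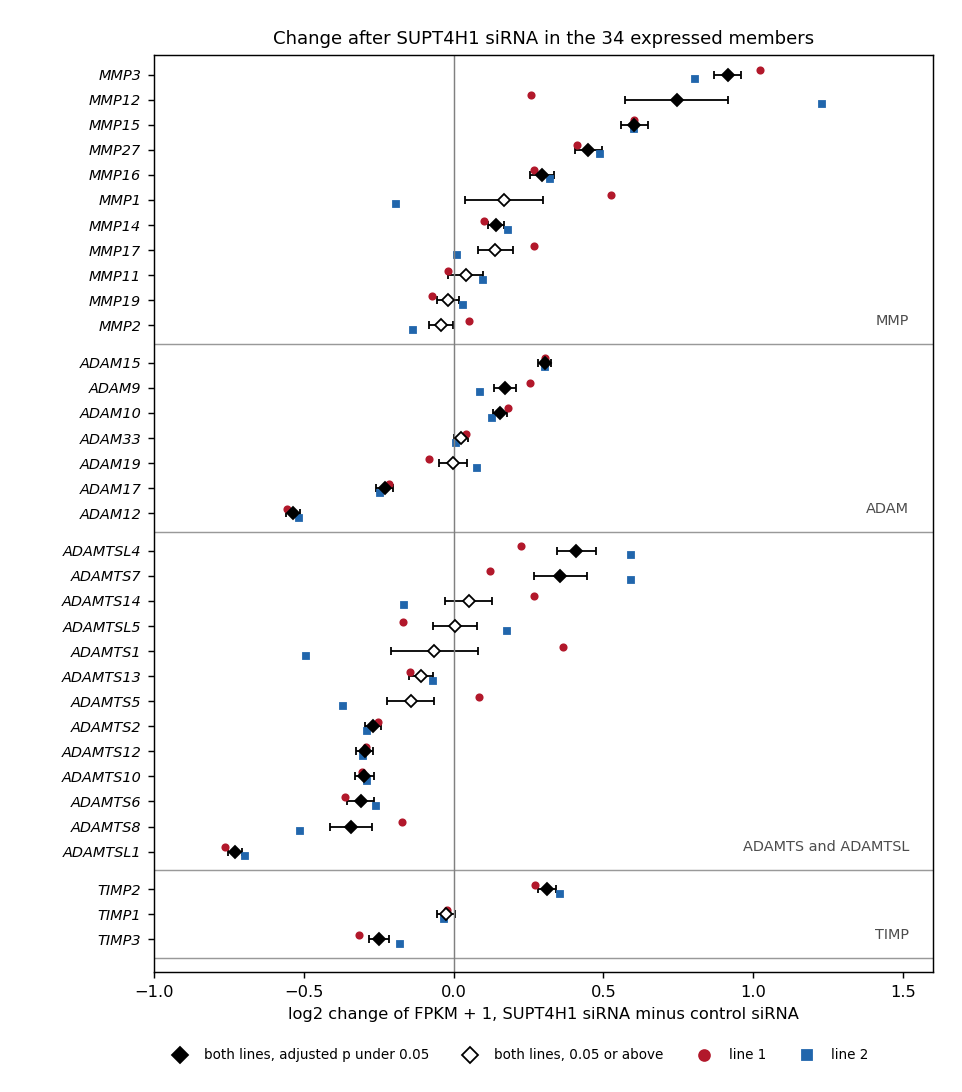
Log2 change of FPKM + 1, SUPT4H1 siRNA minus control siRNA, for the 34 expressed members by class. Diamonds with bars give the estimate over both lines and its standard error (filled where the adjusted p was under 0.05), circles line 1 and squares line 2. The 6 MMP genes that rose lie between 0.14 and 0.91, and ADAMTSL1 at -0.73 has the largest fall.

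Most of these calls rest on the line as block. Without it, in a grouping of 4 against 4, 4 members rose (MMP15, ADAM15, ADAMTSL4 and TIMP2) and 3 fell (ADAMTSL1, ADAMTS2 and ADAMTS12), against 3.56% of all genes that rose and 1.78% that fell, or 5.34% in either direction. The other 14 calls had adjusted p-values of 0.05 or more in that fit. No call was lost when any 1 of the 8 samples was left out of the fit with the block. In line 1 alone 15 members rose and 8 fell, against 19.0% and 11.7% of all genes (30.7% in either direction), and in line 2 alone 13 rose and 13 fell, against 27.0% and 15.9% (42.9% in either direction). Of the 34 expressed members, 5 passed with a log2 change of 0.5 or more in size (MMP3, MMP12, MMP15, ADAM12 and ADAMTSL1), beside 2.26% of all genes tested. In 12 members both SUPT4H1 siRNA samples lay above both control samples in each line, and in 10 they lay below, where 28.8% and 16.6% of all genes tested were so ordered.

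The promoters of the members that passed in each alternative fit that could test them are shown first, because no choice of processing removed these changes. Of these 7 genes, 6 have an entry in the RefSeq promoter table of GRCh38.p14, and TIMP2 is named only. Each window runs from 250 bases before the start to 50 bases after it, on the strand of the gene. Capitals mark GGGCGG or its reverse complement, the core bound by Sp and Krüppel-like factors. They also mark TGANTCA, with any base at N, a looser form of the core bound by AP-1. The first 3 genes rose and the last 3 fell.
MMP15, chr16:58025504-58025803, plus strand: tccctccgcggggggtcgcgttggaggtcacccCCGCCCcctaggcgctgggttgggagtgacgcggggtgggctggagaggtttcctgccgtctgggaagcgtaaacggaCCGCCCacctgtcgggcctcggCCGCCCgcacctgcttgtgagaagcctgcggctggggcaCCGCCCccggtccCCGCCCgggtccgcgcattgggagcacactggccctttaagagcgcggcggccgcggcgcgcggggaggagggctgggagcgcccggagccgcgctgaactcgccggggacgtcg
ADAM15, chr1:155051066-155051365, plus strand: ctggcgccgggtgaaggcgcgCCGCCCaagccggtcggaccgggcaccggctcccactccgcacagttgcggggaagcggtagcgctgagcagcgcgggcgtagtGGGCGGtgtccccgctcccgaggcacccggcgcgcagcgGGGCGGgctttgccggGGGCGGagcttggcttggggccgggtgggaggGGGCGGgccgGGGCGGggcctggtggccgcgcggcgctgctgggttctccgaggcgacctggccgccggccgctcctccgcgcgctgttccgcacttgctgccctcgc
ADAMTSL4, chr1:150549158-150549457, plus strand: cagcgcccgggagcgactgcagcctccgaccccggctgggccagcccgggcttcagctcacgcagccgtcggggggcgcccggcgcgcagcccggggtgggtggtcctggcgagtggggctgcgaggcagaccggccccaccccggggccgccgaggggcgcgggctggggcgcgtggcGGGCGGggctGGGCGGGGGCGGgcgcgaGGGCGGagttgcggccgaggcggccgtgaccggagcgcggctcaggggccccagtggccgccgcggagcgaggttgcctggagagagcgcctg
ADAMTSL1, chr9:18473903-18474202, plus strand: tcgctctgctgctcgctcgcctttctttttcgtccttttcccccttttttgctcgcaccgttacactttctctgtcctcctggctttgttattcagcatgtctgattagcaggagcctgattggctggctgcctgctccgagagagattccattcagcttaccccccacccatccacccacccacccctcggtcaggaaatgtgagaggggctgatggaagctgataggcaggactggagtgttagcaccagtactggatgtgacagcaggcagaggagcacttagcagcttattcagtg
ADAMTS2, chr5:179345412-179345711, minus strand: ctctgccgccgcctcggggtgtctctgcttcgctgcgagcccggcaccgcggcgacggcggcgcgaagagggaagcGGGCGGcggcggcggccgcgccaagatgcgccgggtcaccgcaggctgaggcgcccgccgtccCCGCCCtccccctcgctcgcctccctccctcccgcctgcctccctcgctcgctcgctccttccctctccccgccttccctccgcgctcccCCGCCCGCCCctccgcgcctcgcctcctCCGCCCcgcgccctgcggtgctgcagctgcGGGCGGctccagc
ADAMTS12, chr5:33891941-33892240, minus strand: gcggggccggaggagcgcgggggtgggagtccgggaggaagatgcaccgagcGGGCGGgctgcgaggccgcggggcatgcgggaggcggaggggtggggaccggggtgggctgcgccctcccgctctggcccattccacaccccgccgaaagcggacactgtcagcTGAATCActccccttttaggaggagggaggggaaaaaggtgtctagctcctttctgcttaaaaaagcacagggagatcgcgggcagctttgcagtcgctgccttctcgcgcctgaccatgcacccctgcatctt

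GGGCGG occurred 5 times in the window of MMP15, 6 times in ADAM15 and 4 times in ADAMTSL4, against 0 times in ADAMTSL1, 6 times in ADAMTS2 and 1 time in ADAMTS12. Adjacent or overlapping matches were counted singly. The only TGANTCA was in ADAMTS12, where it reads TGAATCA, with A at the N, and TATAAA was in none of the 6. ADAMTSL1 thus had none of the 3 motifs searched, and 54.0% G or C, against 67.0 to 82.3% in the other 5 and a median of 58.7% over all windows. Among the 34 expressed members, 21 had an entry, with 22 windows, of which 77.3% held GGGCGG on either strand, beside 44.95% of all 35116 windows of the table. TGANTCA was in 1 of the member windows (4.545%) and 7.71% of all windows, and TATAAA in 1 (4.545%) and 11.5%. MMP1, MMP2, MMP3, MMP12 and TIMP2 were among the members with no entry, so these shares do not cover them. The member windows are of expressed genes, while all windows cover 27305 symbols, expressed in these cells or not. The shares over the genes tested are not given here. These are matches of letters and not measured binding.

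The largest changes were in secreted MMPs. MMP3, stromelysin 1, a protease of broad range that also activates procollagenase, stood at 5.22 and 5.09 FPKM in SUPT4H1 siRNA samples of line 1, against 2.00 and 2.05 FPKM in control samples of line 1. In line 2 it stood at 15.4 and 15.7 FPKM in SUPT4H1 siRNA samples, against 8.58 and 8.35 FPKM in control samples. MMP3 thus rose to 254% of the control mean in line 1 and 184% in line 2, with no overlap in either. Its log2 change was 0.91 (SE 0.04, adjusted p = 2.29e-06, and 0.414 without the block). The control samples of line 2 held 4.17 times the MMP3 of those of line 1.

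MMP12, macrophage elastase, was near the floor in line 1, with 0.213 and 0.257 FPKM in SUPT4H1 siRNA samples, against 0.066 and 0 FPKM in control samples. In line 2 it reached 3.34 and 3.75 FPKM in SUPT4H1 siRNA samples, against 0.807 and 1.07 FPKM in control samples. It rose in both lines, by 0.74 on the log2 scale (SE 0.17, adjusted p = 0.00747, and 0.509 without the block), and in line 2 to 377% of control. MMP27 stood at 7.01 and 6.53 FPKM in SUPT4H1 siRNA samples of line 1, against 4.65 and 5.03 FPKM in control samples, and at 3.004 and 3.41 FPKM, against 1.93 and 2.07 FPKM, in those of line 2. It rose by 0.45 on the log2 scale (SE 0.05, adjusted p = 1.02e-04, and 0.527 without the block), to 140% and 160% of control.

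MMP1, interstitial collagenase, which opens the fibrillar collagen triple helix, differed in its response between the 2 lines. In line 1 it stood at 25.65 and 22.9 FPKM in SUPT4H1 siRNA samples, against 16.5 and 16.6 FPKM in control samples. In line 2 it stood at 45.3 and 40.6 FPKM in SUPT4H1 siRNA samples, against 45.7 and 52.8 FPKM in control samples. MMP1 rose in line 1 (log2 change 0.53, adjusted p = 5.91e-04), while in line 2 the difference of -0.19 did not pass (adjusted p = 0.0603). The lines differed by 0.72 (SE 0.10, adjusted p = 0.00242), and over both lines the change of 0.17 did not pass (adjusted p = 0.332).

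MMP1, MMP3, MMP12 and MMP27 lie in the MMP cluster of chromosome 11, where the tables place 9 members within 435.2 kb (hg19 chr11:102391239-102826463). The other 5, MMP7, MMP8, MMP10, MMP13 and MMP20, had means of at most 0.0943 FPKM. MMP7, matrilysin, was listed at 0.248 and 0.271 FPKM in SUPT4H1 siRNA samples of line 1, against 0 and 0 FPKM in control samples, and at 0.0952 and 0.101 FPKM, against 0 and 0.0396 FPKM, in those of line 2. MMP3 (chr11:102706528-102714342) and MMP1 (chr11:102660641-102668966) are 37.6 kb apart. In line 2 MMP3 rose by 0.81 on the log2 scale (adjusted p = 4.7e-07) while MMP1 did not pass, and this contrast of the 2 genes was not tested.

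Of the 4 expressed membrane-anchored MMPs, 3 rose and 1 did not pass over both lines. MMP14, or MT1-MMP, which activates pro-MMP2 at the cell surface with the help of TIMP2, was the most abundant of them. It stood at 184 and 183 FPKM in SUPT4H1 siRNA samples of line 1, against 168.5 and 173 FPKM in control samples. In line 2 the SUPT4H1 siRNA samples had 154 and 154 FPKM, against 134 and 137.5 FPKM in control samples. The groups did not overlap in either line, and the rise was small, 0.14 on the log2 scale (SE 0.03, adjusted p = 0.00261, and 0.558 without the block), or 107% and 113% of control.

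MMP15, or MT2-MMP, had the larger relative rise at a low level. MMP15 stood at 1.81 and 1.67 FPKM in SUPT4H1 siRNA samples of line 1, against 0.750 and 0.860 FPKM in control samples, and at 1.54 and 1.65 FPKM, against 0.750 and 0.671 FPKM, in those of line 2. It rose to 216% and 225% of control (log2 change 0.60, SE 0.05, adjusted p = 1.96e-05, and 0.00265 without the block). MMP16, or MT3-MMP, had 1.69 and 1.63 FPKM in SUPT4H1 siRNA samples of line 1, against 1.20 and 1.23 FPKM in control samples, and 1.30 and 1.27 FPKM, against 0.827 and 0.8286 FPKM, in those of line 2. Its rise of 0.29 passed (adjusted p = 4.8e-04, and 0.144 without the block). MMP17, or MT4-MMP, which has a lipid anchor, stood at 6.92 to 11.5 FPKM in SUPT4H1 siRNA samples and at 7.06 to 9.78 FPKM in control samples. Its change of 0.14 did not pass over both lines (adjusted p = 0.0769), while in line 1 alone it rose by 0.27 (adjusted p = 0.0044). The remaining membrane-type genes MMP24 and MMP25 were below 1 FPKM.

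The most abundant protease of all was MMP2, gelatinase A, which cuts denatured collagen and basement membrane collagen. MMP2 and MMP14 together held 89.4 to 94.3% of the summed MMP FPKM in SUPT4H1 siRNA samples and 90.4 to 95.4% in control samples. MMP2 stood at 894 and 912 FPKM in SUPT4H1 siRNA samples of line 1, against 868 and 875 FPKM in control samples, and at 604 and 610.3 FPKM, against 662 and 672 FPKM, in those of line 2. Both lines were without overlap but in opposite directions, and the change of -0.04 over both did not pass (adjusted p = 0.439). MMP2 fell in line 2 (log2 change -0.14, adjusted p = 0.00344), while in line 1 the difference of 0.05 did not pass (adjusted p = 0.198). The difference between the lines, 0.19, passed (SE 0.04, adjusted p = 0.017) but was lost in 5 of the 8 fits without 1 sample (adjusted p of up to 0.0778). MMP11, stromelysin 3, at 2.13 to 3.94 FPKM in SUPT4H1 siRNA samples and 1.90 to 4.13 FPKM in control samples, and MMP19, at 9.62 to 11.9 FPKM and 8.93 to 12.6 FPKM, did not pass.

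**Figure D2:**
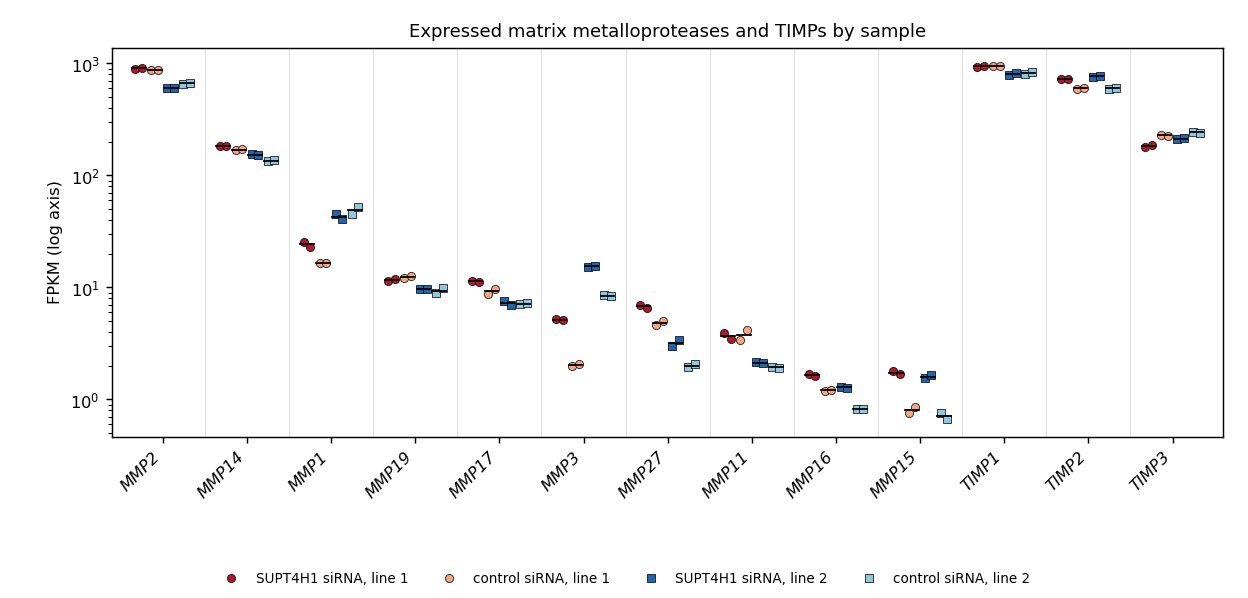
FPKM (log axis) of expressed MMP and TIMP genes in every sample, with points for the replicates and bars for their mean, SUPT4H1 siRNA left of control siRNA within each line. MMP12 is left out because 1 control sample is at 0. MMP3, MMP15, MMP16, MMP27 and TIMP2 are higher in SUPT4H1 siRNA samples of both lines, TIMP3 is lower, and MMP1 is higher in SUPT4H1 siRNA samples of line 1 and lower in those of line 2.

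The inhibitors did not move as a group. TIMP2, which both inhibits MMPs and takes part in the activation of MMP2, stood at 720.0 and 732 FPKM in SUPT4H1 siRNA samples of line 1, against 598 and 606 FPKM in control samples. Line 2 had 765 and 774 FPKM in SUPT4H1 siRNA samples, against 597 and 607 FPKM in control samples. TIMP2 rose to 121% and 128% of control, with nearly equal control levels in the lines (log2 change 0.31, SE 0.03, adjusted p = 7.84e-05, and 0.0447 without the block).

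TIMP3, the inhibitor that binds to the matrix and also blocks ADAM17 and aggrecan-cutting ADAMTS proteases, fell. It stood at 179 and 186 FPKM in SUPT4H1 siRNA samples of line 1, against 229.8 and 225.5 FPKM in control samples, and at 212 and 215.5 FPKM, against 243 and 242 FPKM, in those of line 2. This was 80.3% and 88.2% of control (log2 change -0.25, SE 0.03, adjusted p = 4.49e-04, and 0.113 without the block). TIMP1 was the most abundant inhibitor, with 930.2 and 959.5 FPKM in SUPT4H1 siRNA samples of line 1, against 958 and 959 FPKM in control samples, and 790.3 and 819 FPKM, against 812.5 and 832.5 FPKM, in those of line 2. Its groups overlapped in both lines and its change of -0.03 did not pass (adjusted p = 0.511). TIMP4 was listed at 0.247 to 0.826 FPKM in SUPT4H1 siRNA samples and 0.345 to 0.430 FPKM in control samples and was not tested.

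The 4 TIMP genes summed to 1830, 1878, 1767 and 1808 FPKM in SUPT4H1 siRNA samples, against 1786, 1790.3, 1652.5 and 1681 FPKM in control samples. The 24 MMP genes summed to 1148 and 1160.2 FPKM in SUPT4H1 siRNA samples of line 1, against 1087 and 1101 FPKM in control samples, and to 848 and 850.0 FPKM, against 873 and 895 FPKM, in those of line 2. The ratio of TIMP to MMP FPKM was therefore 1.59 and 1.62 in SUPT4H1 siRNA samples of line 1, against 1.64 and 1.63 in control samples. In line 2 it was 2.08 and 2.13 in SUPT4H1 siRNA samples, against 1.89 and 1.88 in control samples. The ratio was slightly lower after SUPT4H1 siRNA in line 1 and higher in line 2. These sums follow the few abundant genes and carry no test, and they speak of mRNA and not of protein or activity.

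ADAM10 and ADAM17, the main sheddases of cell surface proteins, changed in opposite directions. ADAM10, which cuts Notch and cadherins, stood at 49.7 and 49.2 FPKM in SUPT4H1 siRNA samples of line 1, against 43.8 and 43.2 FPKM in control samples, and at 51.1 and 51.2 FPKM, against 46.2 and 47.25 FPKM, in those of line 2. It rose by 0.15 on the log2 scale (SE 0.02, adjusted p = 7.75e-04, and 0.0786 without the block). ADAM17, the tumour necrosis factor convertase, had 12.15 and 11.5 FPKM in SUPT4H1 siRNA samples of line 1, against 13.7 and 14.0 FPKM in control samples, and 10.6 and 10.7 FPKM, against 13.1 and 12.5 FPKM, in those of line 2. It fell to 85.2% and 83.2% of control (log2 change -0.23, SE 0.03, adjusted p = 2.69e-04, and 0.056 without the block). Neither gene overlapped between the siRNAs in either line.

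ADAM12, meltrin alpha, a protease found in activated mesenchymal cells, had the largest change among the ADAM genes. It stood at 6.996 and 7.20 FPKM in SUPT4H1 siRNA samples of line 1, against 11.01 and 10.8 FPKM in control samples. In line 2 it stood at 20.2 and 20.04 FPKM in SUPT4H1 siRNA samples, against 29.6 and 28.9 FPKM in control samples. ADAM12 fell to 65.1% and 68.9% of control (log2 change -0.54, SE 0.02, adjusted p = 1.44e-06). Without the block its adjusted p was 0.622. The control samples of line 2 held 2.68 times the ADAM12 of those of line 1.

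ADAM15, a membrane protease that also binds integrins, stood at 33.3 and 33.3 FPKM in SUPT4H1 siRNA samples of line 1, against 27.2 and 26.4 FPKM in control samples, and at 33.7 and 33.0 FPKM, against 27.0 and 26.6 FPKM, in those of line 2. It rose to 124% of control in each line (log2 change 0.30, SE 0.02, adjusted p = 1.78e-05, and 0.00265 without the block). ADAM9, another membrane protease, had 99.2 and 96.3 FPKM in SUPT4H1 siRNA samples of line 1, against 81.3 and 82.1 FPKM in control samples, and 126 and 123 FPKM, against 116 and 118 FPKM, in those of line 2. It rose by 0.17 (SE 0.04, adjusted p = 0.00467, and 0.627 without the block). ADAM33 was the most abundant ADAM gene, with 153 and 151 FPKM in SUPT4H1 siRNA samples of line 1, against 148 and 147 FPKM in control samples, and 113 and 113 FPKM, against 114 and 111 FPKM, in those of line 2. Neither ADAM33 (log2 change 0.03, adjusted p = 0.406) nor ADAM19, at 2.01 to 3.48 FPKM in SUPT4H1 siRNA samples and 2.21 to 3.11 FPKM in control samples, passed.

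The summed ADAM FPKM was 360.4 and 353.5 in SUPT4H1 siRNA samples of line 1, against 331 and 329 in control samples, while SUPT4H1 siRNA samples of line 2 had 361 and 356, against 351.5 and 350.0 in control samples. ADAM33, ADAM9 and ADAM10 made up most of it.

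ADAMTS and ADAMTSL genes held most of the falls. ADAMTSL1, also called punctin, a matrix protein with no protease domain, had the largest fall of all members. It stood at 27.1 and 27.8 FPKM in SUPT4H1 siRNA samples of line 1, against 47.05 and 47.35 FPKM in control samples. Line 2 had 25.2 and 25.4 FPKM in SUPT4H1 siRNA samples, against 41.1 and 42.1 FPKM in control samples. This was 58.1% and 60.8% of control (log2 change -0.73, SE 0.02, adjusted p = 4.02e-07, and 0.00173 without the block).

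ADAMTSL4, which binds fibrillin microfibrils, went the other way. It stood at 22.5 and 21.8 FPKM in SUPT4H1 siRNA samples of line 1, against 18.6 and 19.03 FPKM in control samples, and at 28.1 and 27.5 FPKM, against 18.2 and 17.9 FPKM, in those of line 2. It rose to 118% and 154% of control (log2 change 0.41, SE 0.07, adjusted p = 0.00112, and 0.0383 without the block), and the lines differed by -0.37, line 1 minus line 2 (SE 0.05, adjusted p = 0.001). ADAMTSL5, also a microfibril-binding protein, had 4.32 and 4.63 FPKM in SUPT4H1 siRNA samples of line 1, against 5.02 and 5.28 FPKM in control samples, and 8.63 and 10.04 FPKM, against 8.01 and 8.23 FPKM, in those of line 2. The change over both lines was 0.005 (adjusted p = 0.964), and the difference between the lines of -0.34 passed (adjusted p = 0.0394) but was lost in 7 of the 8 fits without 1 sample (adjusted p of up to 0.117).

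The procollagen N-proteinases trim the amino-terminal propeptide from fibrillar procollagens. ADAMTS2, the main one, stood at 39.9 and 41.2 FPKM in SUPT4H1 siRNA samples of line 1, against 48.4 and 48.5 FPKM in control samples, and at 41.7 and 39.3 FPKM, against 49.0 and 50.3 FPKM, in those of line 2. ADAMTS2 fell to 83.7% and 81.5% of control (log2 change -0.27, SE 0.03, adjusted p = 9.26e-05, and 0.00799 without the block). ADAMTS14, a related N-proteinase, had 7.08 and 7.41 FPKM in SUPT4H1 siRNA samples of line 1, against 5.96 and 5.75 FPKM in control samples, and 3.84 and 3.89 FPKM, against 4.43 and 4.496 FPKM, in those of line 2. It rose in line 1 by 0.27 (adjusted p = 0.00113) and fell in line 2 by 0.17 (adjusted p = 0.00984). The lines differed by 0.43 (SE 0.06, adjusted p = 0.00169). ADAMTS3, the third N-proteinase, was below 0.354 FPKM in every sample.

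ADAMTS1 and ADAMTS5, which cut versican and aggrecan, lie 72.5 kb apart on chromosome 21 (hg19 chr21:28208606-28217728 and chr21:28290231-28339439). ADAMTS1 stood at 83.7 and 79.3 FPKM in SUPT4H1 siRNA samples of line 1, against 62.7 and 63.5 FPKM in control samples, and at 65.7 and 67.5 FPKM, against 91.4 and 96.98 FPKM, in those of line 2. It rose to 129% of control in line 1 (log2 change 0.36, adjusted p = 8.16e-05) and fell to 70.7% in line 2 (log2 change -0.49, adjusted p = 6.47e-06). The difference between the lines, 0.86 (SE 0.05, adjusted p = 2.42e-05), had the smallest p-value among the members, and the change of -0.06 over both lines did not pass (adjusted p = 0.748). ADAMTS5 had 29.5 and 28.45 FPKM in SUPT4H1 siRNA samples of line 1, against 27.1 and 27.4 FPKM in control samples, and 17.7 and 18.3 FPKM, against 23.1 and 24.0 FPKM, in those of line 2. It fell in line 2 by 0.37 (adjusted p = 2.15e-05), the difference of 0.08 in line 1 did not pass (adjusted p = 0.0863), and the lines differed by 0.45 (SE 0.05, adjusted p = 4.35e-04). Both neighbours thus lay higher in line 1 and lower in line 2 in the SUPT4H1 siRNA samples.

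ADAMTS8, another proteoglycan-cutting member, had 6.98 and 6.84 FPKM in SUPT4H1 siRNA samples of line 1, against 7.91 and 7.91 FPKM in control samples, and 1.25 and 1.31 FPKM, against 2.47 and 2.06 FPKM, in those of line 2. It fell by 0.34 (SE 0.07, adjusted p = 0.00434, and 0.821 without the block). By line, the difference of -0.17 in line 1 did not pass (adjusted p = 0.0553), and ADAMTS8 fell by 0.51 in line 2 (adjusted p = 1.09e-04). A difference of 0.34 between the lines passed (adjusted p = 0.0331) but was lost in 7 of the 8 fits without 1 sample (adjusted p of up to 0.0943). ADAMTS15, which lies 20.3 kb from ADAMTS8 on chromosome 11, missed the limit of 1 FPKM. It stood at 1.84 and 1.62 FPKM in SUPT4H1 siRNA samples of line 1, against 0.728 and 0.712 FPKM in control samples, and at 0.709 and 0.661 FPKM, against 0.243 and 0.278 FPKM, in those of line 2. In a fit with no filter on FPKM it rose by 0.54 (adjusted p = 0.00104), while ADAMTS4, the aggrecanase 1 gene, at 0.276 to 0.699 FPKM over all samples, fell by 0.23 (adjusted p = 7.62e-04). ADAMTS9, which also cuts versican, at 0.485 to 0.903 FPKM, fell by 0.12 (adjusted p = 0.0161) in that fit. There, 2 rises and 6 falls passed among the 27 members tested below a mean of 1 FPKM. The share of all genes called in that fit is not given here.

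ADAMTS7 and ADAMTS12 are close relatives that bind cartilage oligomeric matrix protein, and they changed in opposite directions. ADAMTS12 had 4.68 and 4.75 FPKM in SUPT4H1 siRNA samples of line 1, against 6.11 and 5.90 FPKM in control samples, and 5.04 and 5.18 FPKM, against 6.62 and 6.44 FPKM, in those of line 2. It fell to 78.5% and 78.3% of control (log2 change -0.30, SE 0.03, adjusted p = 7.29e-05, and 0.0164 without the block). ADAMTS7 had 1.547 and 1.56 FPKM in SUPT4H1 siRNA samples of line 1, against 1.36 and 1.34 FPKM in control samples, and 2.46 and 2.70 FPKM, against 1.32 and 1.44 FPKM, in those of line 2. It rose by 0.36 over both lines (SE 0.09, adjusted p = 0.0103, and 0.177 without the block). In line 1 alone the difference of 0.12 did not pass (adjusted p = 0.147), and the difference between the lines was -0.47 (SE 0.08, adjusted p = 0.00668).

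ADAMTS10 and ADAMTS6, a pair of paralogues tied to fibrillin microfibrils, both fell. ADAMTS10 had 6.39 and 6.21 FPKM in SUPT4H1 siRNA samples of line 1, against 7.97 and 8.06 FPKM in control samples, and 3.06 and 3.35 FPKM, against 4.12 and 4.16 FPKM, in those of line 2. Its log2 change was -0.30 (SE 0.03, adjusted p = 1.31e-04, and 0.649 without the block). ADAMTS6 had 0.487 and 0.529 FPKM in SUPT4H1 siRNA samples of line 1, against 0.885 and 0.989 FPKM in control samples, and 1.37 and 1.44 FPKM, against 1.87 and 1.88 FPKM, in those of line 2. Its log2 change was -0.31 (SE 0.05, adjusted p = 7.23e-04, and 0.523 without the block). ADAMTS13, which cuts von Willebrand factor, had 1.93 and 1.93 FPKM in SUPT4H1 siRNA samples of line 1, against 2.20 and 2.295 FPKM in control samples, and 1.47 and 1.505 FPKM, against 1.552 and 1.67 FPKM, in those of line 2. It was lower in each line without overlap and did not pass (log2 change -0.11, adjusted p = 0.0528).

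**Figure D3:**
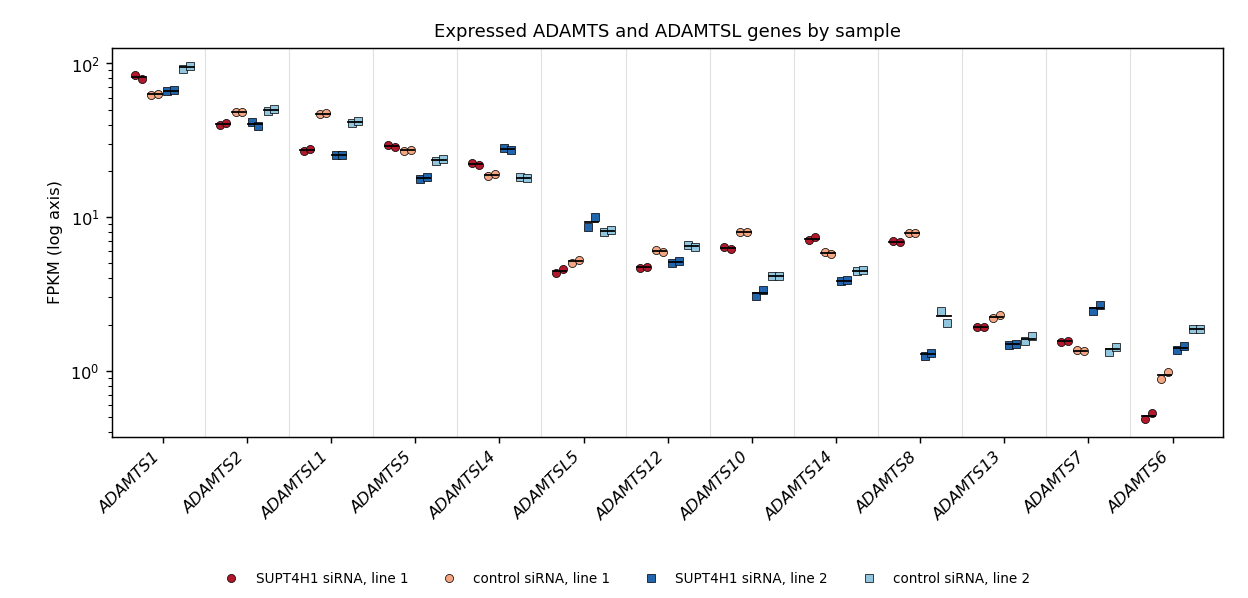
FPKM (log axis) of the 13 expressed ADAMTS and ADAMTSL genes in every sample, with points for the replicates and bars for their mean, SUPT4H1 siRNA left of control siRNA within each line. ADAMTSL1, ADAMTS2, ADAMTS12, ADAMTS10 and ADAMTS6 are lower in SUPT4H1 siRNA samples of both lines, and ADAMTS1 is higher in line 1 and lower in line 2.

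Summed over the 19 ADAMTS genes, FPKM stood at 185 and 181 in SUPT4H1 siRNA samples of line 1, against 173 and 174 in control samples, while SUPT4H1 siRNA samples of line 2 had 145 and 146, against 188 and 195 in control samples. The 5 ADAMTSL genes summed to 53.9 and 54.2 FPKM in SUPT4H1 siRNA samples of line 1, against 70.7 and 71.7 FPKM in control samples, while SUPT4H1 siRNA samples of line 2 had 61.9 and 62.9 FPKM, against 67.3 and 68.3 FPKM in control samples. The ADAMTS sum, of which ADAMTS1 was the largest item, thus pointed in opposite directions in the 2 lines.

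The response differed between the lines in 12 of the 34 expressed members, or 35.3%, beside 9.88% of all genes tested. The log2 change in line 1 minus that in line 2 was above 0 in 8 of them and below 0 in 4, against 4.49% and 5.39% of all genes. This sign does not say in which line the change was larger in size. Of these 12, 7 were in the ADAMTS and ADAMTSL class, 4 were MMP genes, 1 was an ADAM gene and 0 were TIMP genes. In 6 of them the estimates had opposite signs in the lines, and in 2, ADAMTS1 and ADAMTS14, the rise in line 1 and the fall in line 2 each passed. When any 1 sample was left out, 7 of the 12 differences still passed in every such fit, namely ADAMTS1, ADAMTS5, ADAMTS7, ADAMTS14, ADAMTSL4, MMP1 and MMP12. That of MMP12, -0.97, did not pass with a pseudocount of 0.1 (-0.45, adjusted p = 0.492). The difference in MMP3 was lost in each of the 8 fits without 1 sample (adjusted p of up to 0.118), and those in ADAM9, ADAMTS8, ADAMTSL5 and MMP2 in 5 to 7 of them.

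**Figure D4:**
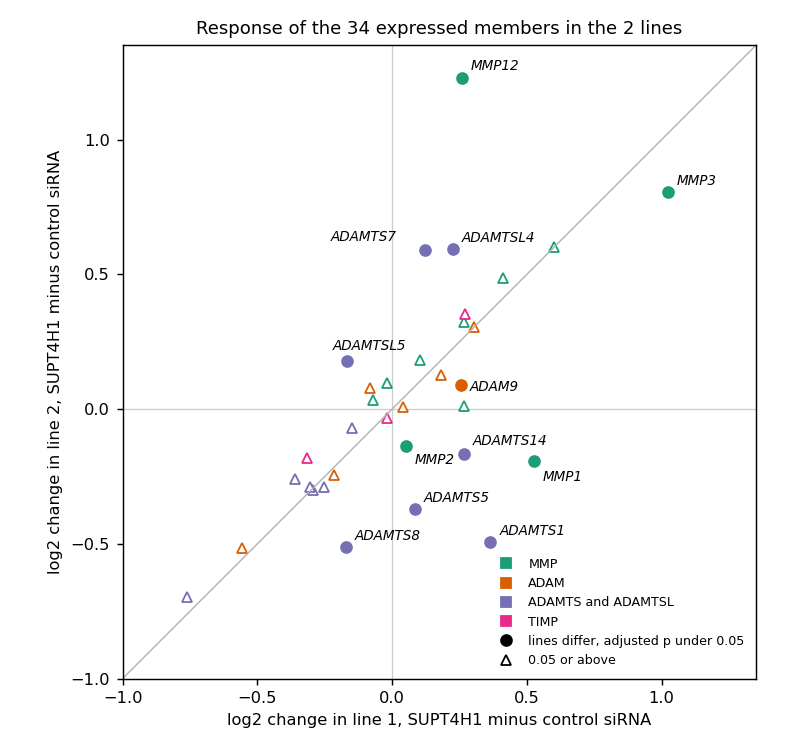
Log2 change after SUPT4H1 siRNA in line 1 (horizontal) and line 2 (vertical) for the 34 expressed members, coloured by class, with the diagonal of equal change. Filled circles mark the 12 members whose lines differed at an adjusted p under 0.05, and open triangles the others. ADAMTS1, ADAMTS5, ADAMTS14, MMP1 and MMP2 lie to the lower right, above 0 in line 1 and below 0 in line 2, and ADAMTSL5 lies to the upper left.

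The members also varied in the length of the gene, which the choice by symbol did not use. The 9 members that fell spanned a median of 234.6 kb in the deposited hg19 coordinates, and the 12 that rose a median of 17.8 kb. Over all genes tested with 1 row per symbol, these medians were 30.7 kb for the 1728 that fell and 27.0 kb for the 3031 that rose. Of the 6 members that span 200 kb or more, 5 fell (ADAMTSL1, ADAM12, ADAMTS12, ADAMTS6 and ADAMTS2) and MMP16, of 290.3 kb, rose. Of the 664 genes of that span in the whole series, 29.7% fell and 18.4% rose. Among the 20 members under 50 kb, 2 fell (10.0%) and 7 rose (35.0%), beside 14.0% and 27.7% of all genes of that span. Of the 8 members from 50 to 200 kb, 2 fell and 4 rose, beside 15.5% and 26.3% of all genes of that span. The median log2 change of the members was 0.03 under 50 kb, 0.10 from 50 to 200 kb and -0.30 from 200 kb. It thus did not fall steadily with span. Across the 34 members, which are not independent replicates, the Spearman correlation of span with log2 change was -0.415, and across 11313 genes it was -0.046. Of these 6 long members 4 are ADAMTS or ADAMTSL genes, so span and class cannot be told apart.

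**Figure D5:**
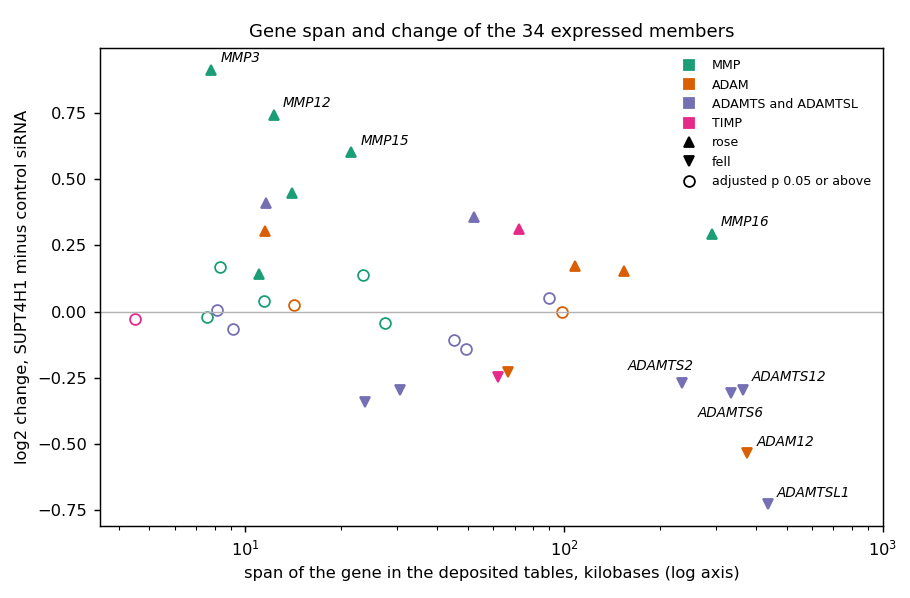
Span of the gene in the deposited tables (kilobases, log axis) against log2 change after SUPT4H1 siRNA for the 34 expressed members, coloured by class. Upward triangles rose, downward triangles fell and open circles had an adjusted p of 0.05 or more. Of the 6 members at the right, from 200 kb, 5 fell and MMP16 rose.

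Genes around the proteases were described by lists, with changes over both lines unless a line is named. The lists were drawn up with earlier results of these data known, so their counts only describe these genes. Of the genes named below, some differed between the lines (adjusted p under 0.05), as 9.88% of all genes tested did. These were FRMD8, BSG, FURIN, PLAU, PLAT, PLAUR, RECK, SERPINE2, SERPINB2, CD44, BGN and FOSL1. Of 16 tested genes for activation, chaperoning and trafficking of the proteases, 7 rose and 0 fell over both lines, with a median log2 change of 0.13. This stands beside 26.8% of all genes that rose and 15.2% that fell. In the fit without the block 3 rose and 0 fell, beside 3.56% of all genes that rose and 1.78% that fell. FRMD8, which stabilises the iRhom and ADAM17 complex, rose by 0.64 (adjusted p = 1.15e-04) and BSG, basigin, known as an inducer of MMPs, rose by 0.36 (adjusted p = 1.55e-04). TSPAN14, a tetraspanin partner of ADAM10, rose by 0.25 (adjusted p = 1.23e-04), RHBDF1, an iRhom, by 0.22 (adjusted p = 6.58e-04) and the proprotein convertase PCSK7 by 0.23 (adjusted p = 0.00184). FURIN, the convertase that activates many of these enzymes, did not pass (log2 change 0.10, adjusted p = 0.0819). PLAU, PLAT and PLAUR did not pass over both lines. In line 1 alone they fell by 0.26, 0.26 and 0.25 (adjusted p = 6.73e-04, 0.00533 and 0.0176). In line 2 alone PLAU rose by 0.35 (adjusted p = 5.79e-05), and PLAT and PLAUR did not pass.

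Among 9 tested genes of other inhibitors and clearance, 4 rose and 4 fell, with a median of -0.14, beside 26.8% of all genes that rose and 15.2% that fell. In the fit without the block 2 rose and 1 fell, beside 3.56% of all genes that rose and 1.78% that fell. RECK, a membrane-anchored inhibitor of MMPs, fell by 0.25 (adjusted p = 0.00727) and SPOCK1, a testican proteoglycan, by 0.83 (adjusted p = 3.83e-07). SERPINE2, protease nexin 1, rose by 0.53 over both lines (adjusted p = 0.0109), by 0.14 in line 1 and by 0.925 in line 2. SERPINB2 rose by 2.32 (adjusted p = 1.05e-05) and TFPI2 by 1.21 (adjusted p = 2.16e-05).

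Of 21 tested membrane proteins shed by ADAM10 or ADAM17, 7 rose and 7 fell, with a median of -0.04, beside 42.1% of all genes called in either direction. In the fit without the block 2 rose and 2 fell, beside 5.34% of all genes called in either direction. APLP2, a relative of the amyloid precursor protein, rose by 0.55 (adjusted p = 1.12e-06) and IL6R, the interleukin 6 receptor, by 0.34 (adjusted p = 3.83e-05). NRG1, a growth factor precursor, fell by 0.52 (adjusted p = 1.83e-04) and CD44, the hyaluronan receptor, by 0.45 (adjusted p = 8.41e-05).

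Of 12 tested substrates and glycosylation enzymes of ADAMTS and ADAMTSL proteins, 2 rose and 8 fell, with a median of -0.35, beside 26.8% of all genes that rose and 15.2% that fell. In the fit without the block 0 rose and 2 fell, beside 3.56% of all genes that rose and 1.78% that fell. COMP, a target of ADAMTS7 and ADAMTS12, fell by 0.86 (adjusted p = 5.91e-05), LTBP1 by 0.82 (adjusted p = 1.03e-06) and THBS1 by 0.81 (adjusted p = 5.67e-07). BGN, the proteoglycan biglycan, fell by 0.58 (adjusted p = 8.11e-04) and FBN1, the microfibril protein fibrillin 1, by 0.57 (adjusted p = 2.49e-06). VCAN, the versican substrate of ADAMTS1 and ADAMTS5, was among the 2 rises (log2 change 0.30, adjusted p = 1.25e-04). COL1A1, COL1A2 and FN1 are on this list and were not tested, because some of their values are failed estimates listed at 0.

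Of 18 tested factors known to bind MMP promoters, 4 rose and 7 fell, with a median of -0.03, beside the same 26.8% and 15.2% of all genes. In the fit without the block 0 rose and 2 fell, beside 3.56% of all genes that rose and 1.78% that fell. The AP-1 subunit FOSL1 rose by 0.47 (adjusted p = 2.84e-04), while FOSL2 fell by 0.21 (adjusted p = 4.88e-04) and JUN by 0.20 (adjusted p = 1.68e-04). RUNX1 fell by 0.51 (adjusted p = 1.12e-05), TCF7L2 by 0.39 (adjusted p = 3.77e-05) and RUNX2 by 0.30 (adjusted p = 6.67e-04).

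Of the similar symbols that are no members, MMP24-AS1 was the only one with a mean above 1 FPKM. It stood at 27.6 and 29.2 FPKM in SUPT4H1 siRNA samples of line 1, against 20.5 and 20.9 FPKM in control samples, and at 59.0 and 60.3 FPKM, against 47.0 and 49.2 FPKM, in those of line 2. MMP24 itself, which it overlaps in the tables, stood at 0.177 to 0.628 FPKM over all samples. Whether strand was used in counting is not given in the sources used here, so reads of the overlap cannot be assigned to either.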

How the data were processed

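FPKM values, with interval bounds and a status, were deposited by the authors in 1 table per sample with 27032 rows, on hg19 per the submitters' processing notes. Which aligner, quantification tool and annotation were used is not given in the sources used here. Per the labels' protocols, RNA was isolated with a PureLink kit and libraries were polyA selected. Fragment numbers are unknown, so precision was read from the deposited intervals. The 2020 symbols of small RNAs were left out and rows of 1 symbol were summed, which left 23248 symbols. Genes with mean FPKM of 1 or more and status OK in all samples were tested (11442).

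Differences in log2(FPKM + 1) were tested, 2-sided, with limma 3.58.1 (R 4.3.3) with a mean-variance trend, the line as block and Benjamini-Hochberg adjustment. Responses by line and their difference came from a fit of 4 group means. Samples of 1 line share their cells, and their deviations from the siRNA means correlated at 0.883 to 0.9. Replicate numbers carry no stated pairing. Only the fit with the line as block was tried on simulated data, with changes planted equally in both lines. The test of the difference between the lines was not tried in this way. Tables and plots used Python 3.11.15, pandas 2.3.3, numpy 2.4.6 and matplotlib 3.10.9. Promoters come from RefSeq (GRCh38.p14) and were matched by symbol.

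Named with all sample values are the 12 largest rises, the 12 largest falls (of which 9 passed), members of 20 FPKM or more, and members whose lines differed; others are given by range. Beside the lists, FURIN, PLAU, PLAT, PLAUR, VCAN, ADAMTS15, MMP7, MMP24-AS1, ADAMTS4 and ADAMTS9 were named after their values were seen. The members and lists were chosen with earlier results of these data known. 1 gene of the list of other inhibitors is counted there and not reported here by name.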

Additional observations from a re-analysis of the deposited data

Results flagged for a closer look

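In 12 members the response differed between the lines by a test of the difference itself, limma's contrast of the log2 change in line 1 minus that in line 2, adjusted over all genes. The difference was 0.86 for ADAMTS1, 0.72 for MMP1, 0.45 for ADAMTS5, 0.43 for ADAMTS14, 0.34 for ADAMTS8, 0.22 for MMP3, 0.19 for MMP2 and 0.17 for ADAM9. It was -0.97 for MMP12, -0.47 for ADAMTS7, -0.37 for ADAMTSL4 and -0.34 for ADAMTSL5. In none of the 68 groups of 4 values was 1 sample far from the other 3 of its siRNA, but each group holds both lines, which differ more than replicates do, so this check could hardly show one.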

How the results depend on the processing

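The 12 rises and 9 falls were recomputed under 16 other settings. All 21 calls kept their direction and passed in every fit with a block in which they were tested. Without the replicate block 4 rose and 3 fell, against 3.56% and 1.78% of all genes tested, and 14 of the 21 were lost. With line and replicate number together as replicate block 12 rose and 9 fell. The numbers themselves pair samples only weakly, since deviations of same-numbered samples correlated at 0.103 in line 1 and 0.052 in line 2. Without a filter on FPKM 14 rose and 15 fell among 61 members tested, of which 2 rises and 6 falls were in members below a mean of 1 FPKM. The share of all genes called in that fit is not given here, so these counts are not a result about the members. Leaving out 1 sample each gave 12 to 13 rises, 9 to 10 falls and 7 to 9 differences between the lines, in place of 12.

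The MMP median was 0.075 with no filter and 0.14 to 0.28 without 1 sample. The ADAM median was -0.00999 after scaling by median ratios. The ADAMTS and ADAMTSL median was -0.11 with no filter, -0.21 from 2 FPKM, -0.18 after scaling and -0.20 to -0.10 without 1 sample. The TIMP median was 0.043 with no filter, -0.062 after scaling and -0.036 to -0.015 without 1 sample. Scaling shifted the median of all genes by -0.03, and with it the summed classes changed on the log2 scale by -0.026 (MMP), 0.036 (ADAM), -0.22 (ADAMTS and ADAMTSL) and 0.041 (TIMP), in place of 0.0093, 0.072, -0.18 and 0.077. The cause of the other shifts was not tested.

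Without the replicate block the lists held 3 (activation), 3 (other inhibitors), 4 (shed proteins), 2 (ADAMTS substrates) and 2 (promoter factors) called genes, in place of 7, 8, 14, 10 and 11. Of all genes tested, 5.34% were called in either direction in that fit, in place of 42.1%. Among the 34 members tested, directions turned only for ones that were not called. These were ADAM33 (-0.00999) and ADAMTSL5 (-0.0257) after scaling, ADAMTSL5 with a pseudocount of 0.1 (-0.00163) and, over the fits without 1 sample, ADAMTS1 (-0.166 to 0.038), ADAMTSL5 (-0.0692 to 0.0556), ADAMTS14 (-0.0050 to 0.0968), ADAM19 (-0.0424 to 0.0245) and MMP19 (-0.0552 to 0.0013). ADAMTS13 passed as a fall after scaling (adjusted p = 0.0222), without the trend (adjusted p = 0.0215) and without the first control sample of line 2 (limma, adjusted p = 0.0428), and MMP17 as a rise without the second SUPT4H1 siRNA sample of line 2 (adjusted p = 0.024). MMP12 no longer differed past the threshold between lines with a pseudocount of 0.1. The widest deposited interval had a median half-width of 14.4% in members of 1 to 10 FPKM and 1.57% in those of 100 FPKM or more.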
